A study of Mus musculus with 10 samples.

Results

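K7M2 cells, a mouse osteosarcoma line, that expressed a nonphosphorylatable ezrin (T567A) were set against cells of the same origin that expressed wild-type ezrin. The comparison used the raw gene counts of the 2 libraries labelled T567A and the 2 labelled wild type, out of 10 libraries in all, and covered the 12595 of 41743 gene names that passed a filter on low counts. The T567A line was homozygous for a CRISPR/Cas9 disruption of ezrin, per its label, and stably carried a vector with ezrin T567A. The wild-type line carried the same disruption and a vector with wild-type ezrin. A T567D (phosphomimetic) line and an empty-vector line of the same disrupted cells, and parental K7M2 cells with intact ezrin, gave 2 further libraries each and served as side values. All were grown untreated in serum-containing medium. The titles of the 4 derived lines share a tag that is taken to name 1 disrupted clone. There was 1 stable line per construct, and what the mutation did cannot be told apart from what that line is. Whether the 2 libraries of a line are separate cultures is not on the labels. The p-values therefore stand for the spread among the libraries at hand, which may be technical.

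Ezrin is the founding member of the ERM family (ezrin, radixin, moesin), which ties cortical actin filaments to proteins of the plasma membrane. It alternates between a folded form in the cytoplasm and an open form at the membrane, and phosphorylation of threonine T567 in its actin-binding tail favours the open form. Alanine at this residue cannot be phosphorylated. In osteosarcoma, ezrin is best known for its part in lung metastasis, for which K7M2 is a standard mouse model. The threonine codon lies in exon 13 of 13 of Ezr, on the minus strand of chromosome 17 (GRCm38, GENCODE M21), and is shown in capitals in the endogenous coding strand, 5′ to 3′, since it is the residue that sets the 2 lines apart.
Ezr (chr17:6739336-6739392, minus strand): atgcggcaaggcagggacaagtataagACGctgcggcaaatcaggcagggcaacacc
The codon itself occupies 6739363 to 6739365. Counts per gene hold no sequence, so neither the mutation nor the disruption could be read from these data, and mRNA of the vector could not be separated from that of the endogenous locus.

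Ezr stood at 248 and 253 CPM (counts relative to the TMM-scaled library total) in the T567A libraries and at 230.4 and 233 CPM in the wild-type libraries. Both lines lay above the empty-vector libraries, at 72.4 and 72.9 CPM, and the groups did not overlap. The level of Ezr thus sets a line with an ezrin vector apart from the empty vector. It cannot check which line carries T567A and which wild type. The difference between T567A and wild type was 0.11 ± 0.0619 (log2 fold change ± standard error) and was not called (adjusted p = 0.166). A gene is called here when its adjusted p is under 0.05 in the quasi-likelihood test of edgeR, two-sided, with the method of Benjamini and Hochberg applied over all tested genes. With a correction for transcript GC content, chosen after seeing the data, the Ezr difference became 0.17 and was called (adjusted p = 0.0192). Msn, which encodes moesin, fell to 385 and 375 CPM in T567A, against 534 and 519.9 CPM in wild type (-0.47 ± 0.0566, adjusted p = 1.15e-06). Its T567A level was also below that in the T567D libraries, at 642 and 674 CPM, and in the empty-vector libraries, at 529.6 and 527 CPM. Rdx, which encodes radixin, had 221 and 226 CPM in T567A and 219 and 221 CPM in wild type, and its estimate of 0.02 (adjusted p = 0.83) changed sign with scaling. Nf2, which encodes merlin, a tumour suppressor related to the ERM proteins, was lower by a small margin (-0.21 ± 0.0624, adjusted p = 0.0109), a call that was lost with the GC correction (-0.13) and without T567A replicate 2 (-0.16), without wild-type replicate 1 (-0.17) and with the replicate number as a block (-0.16). In these bulk samples, fewer cells that express a gene and less RNA of it per cell cannot be told apart.

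The T567A libraries held 14679424 and 18230763 counts and the wild-type libraries 16846966 and 17157736. The share of mitochondrially encoded genes was 1.90% and 1.44% in T567A, against 1.21% and 1.33% in wild type. The 2 T567A libraries differed from each other more than those of any other line (chi-square per degree of freedom of 8.92, against 2.53 in wild type and at most 4.57 elsewhere). Of the defining osteoblast genes, Runx2 was present at 42.6 and 35.5 CPM in T567A and 36.6 and 37.8 CPM in wild type, while Dlx5 had 0 counts in all 4 libraries and Sp7, Ibsp and Bglap had at most 5 in any of them. The summed level of T, B and NK cell markers was at most 1.28 CPM in any library, that of epithelial markers at most 1.05 CPM and that of endothelial markers at most 3.04 CPM. Adipocyte, muscle and chondrocyte markers summed to at most 12.1, 21.8 and 4.95 CPM in any library. The 12 macrophage and myeloid markers summed to 1594 and 1726 CPM in T567A and 1418 and 1429 CPM in wild type, with Adgre1, C1qa and C1qb at 0. Nearly all of that sum was Csf1r, at 1557 and 1681 CPM in T567A and 1379 and 1389.7 CPM in wild type. Fold changes also followed base composition. When the tested genes were split into 4 equal groups by transcript GC content, the median log2 fold change was 0.18 in the group of lowest GC content, with 37.2% of genes called higher and 5.34% lower. In the group of highest GC content it was -0.20, with 7.60% called higher and 38.1% lower. The same trend appeared between the 2 T567A libraries (medians of 0.14 and -0.11 for replicate 2 minus replicate 3) and was weaker and of opposite sign between the wild-type libraries (-0.03 and 0.03). Values with the GC correction are given beside many of the gene groups, but not beside all.

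**Figure D1:**
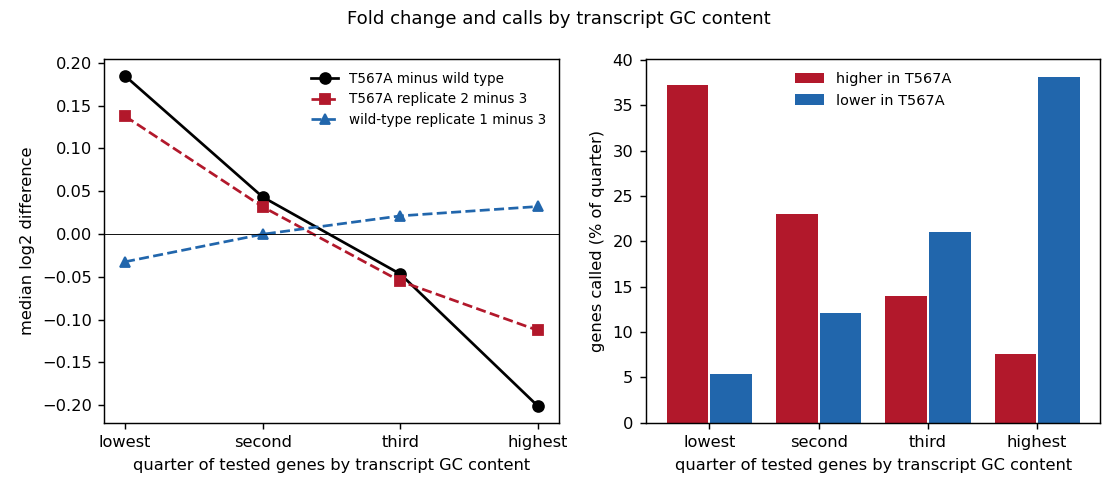
Left, median log2 difference (y axis) in 4 equal groups of tested genes by transcript GC content (x axis) for T567A minus wild type, T567A replicate 2 minus 3 and wild-type replicate 1 minus 3. Right, percent of each group called higher or lower in T567A. The T567A minus wild-type median is 0.18 in the group of lowest and -0.20 in the group of highest GC content.

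Between T567A and wild type, 4983 genes (39.6% of those tested) were called, 2574 higher (20.4%) and 2409 lower (19.1%). Of these, 642 (5.1%) differed by more than 2-fold, 325 higher (2.58%) and 317 lower (2.52%). Most of the remaining calls were small: the quartiles of the log2 fold change over all genes were -0.23 and 0.22, and a test against a 1.5-fold change called 492. Without wild-type replicate 1 the count of 4983 fell to 3314. With the GC correction it was 4620, of which 3552 were also called without it, and 606 of the 642 genes past 2-fold remained called. Across the same genes, T567A minus T567D gave 5558 calls (44.1%), 22.5% of genes higher and 21.6% lower. T567A minus empty vector gave 5842 (46.4%), 23.7% higher and 22.7% lower. These comparisons share the T567A libraries. The libraries of T567A and wild type did not overlap for 8710 genes (69.2%).

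Among protein-coding genes that averaged 10 CPM or more in one of the lines, the largest increase was that of Megf6, which encodes a protein with EGF-like repeats. It had 19.5 and 20.1 CPM in T567A, against 3.14 CPM in each wild-type library (2.65 ± 0.136, adjusted p = 2.63e-12). Iigp1, an interferon-inducible GTPase, also stood high, at 251 and 190.1 CPM in T567A and 40.2 and 42.4 CPM in wild type (2.41 ± 0.105, adjusted p = 9.41e-11). Of the 12 largest increases, Rsad2, Iigp1, Cxcl10, Cmpk2, Slfn8, Ifit1, Sp110 and Ifit3b were members of the interferon-response or chemokine lists, Ogn and Adamts1 encode matrix proteins, and Phf11b, a PHD finger gene, was in no list. The largest decrease was that of Egln3, an oxygen-sensing prolyl hydroxylase that marks HIF proteins for destruction. Its level was 1.86 and 2.17 CPM in T567A, against 16.0 and 15.0 CPM in wild type (-2.93 ± 0.158, adjusted p = 5.14e-12). Pmepa1, a feedback inhibitor of TGF-beta signalling, fell to 5.45 and 5.73 CPM in T567A, against 28.7 and 23.1 CPM in wild type (-2.21 ± 0.213, adjusted p = 1.43e-05). Only called genes whose libraries did not overlap between the 2 lines entered this ranking, so the lack of overlap here follows from the selection. Acsbg1, a fatty acyl-CoA synthetase, Hip1r, which links clathrin coats to actin, Hspb7, a small heat shock protein, and Ncam1, a cell adhesion molecule, were lower as well (-2.13, -1.87, -1.74 and -1.52 on the log2 scale).

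**Figure D2:**
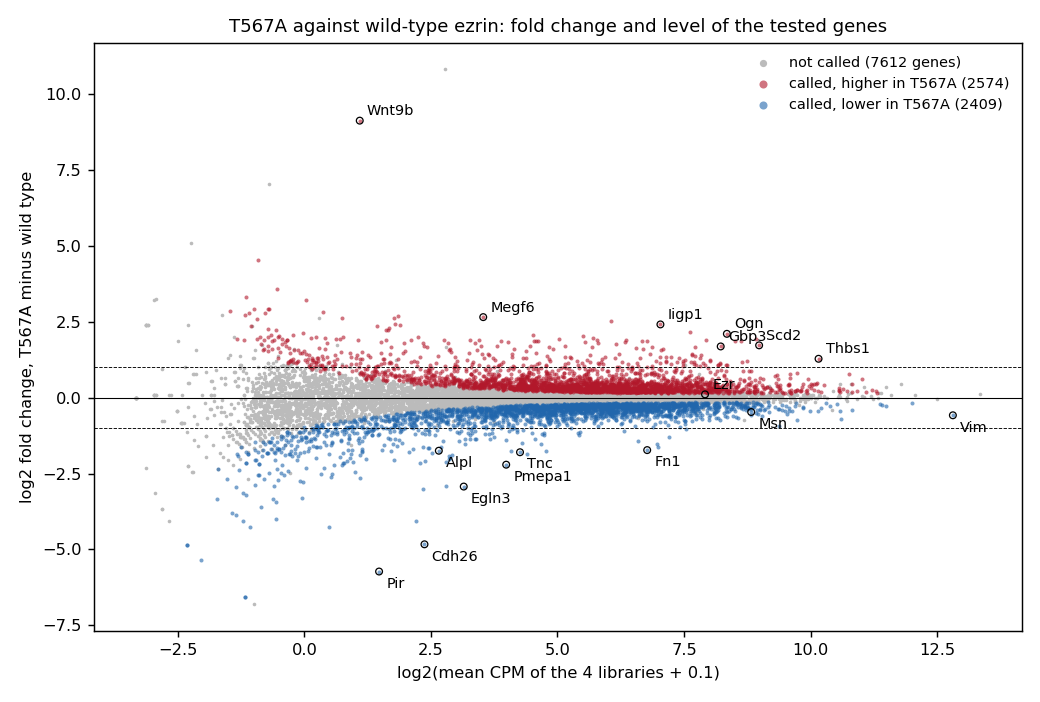
Log2 fold change, T567A minus wild type (y axis), of the 12595 tested genes against log2 of their mean CPM over the 4 libraries plus 0.1 (x axis). Red and blue points are genes called higher (2574) and lower (2409) in T567A, grey points were not called, dashed lines mark a 2-fold change, and circled genes are described in the text. Most calls lie inside the dashed lines, and Iigp1, Ogn and Megf6 stand above them.

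Genes of low level showed still more extreme contrasts and were singled out after their values were seen. Wnt9b, a secreted Wnt ligand on chromosome 11 (103727364 to 103749821), had 55 and 78 counts in the T567A libraries and 0 in the other 8 libraries of the series. Against a floor of 3 counts per library it was at least 23.1-fold higher in T567A than in wild type (adjusted p = 3.31e-08). Wnt5a, a ligand of the branch that acts without beta-catenin, rose to 57.5 and 51.9 CPM in T567A, against 20.5 and 23.4 CPM in wild type (1.31 ± 0.0874, adjusted p = 1.46e-10). The Wnt pathway list did not rise as a whole. Of its 19 tested genes, 3 rose, 5 fell and 11 were not called (median 0.03). Among all tested genes 20.4% rose and 19.1% fell. Pir, which encodes the iron-binding protein pirin (X chromosome, 164269371 to 164373011), had 1 and 2 counts in T567A and 87 and 96 in wild type, 59-fold lower in T567A per library total (95% exact binomial interval 19.9 to 289, counting error only). Cdh26, a cadherin gene, had 3 and 8 counts in T567A and 172 and 169 in wild type (-4.83 ± 0.26, adjusted p = 5.02e-12). Its neighbours on chromosome 2 were also called lower in T567A, with 11 and 5 counts of Fam217b in T567A and 165 and 128 in wild type, and 1 and 0 counts of Ppp1r3d in T567A and 8 and 11 in wild type. Cdh26 was at 0.207 and 0.445 CPM in T567A, 2.19 and 1.75 CPM in T567D and 0.735 and 0.636 CPM in the empty vector, against 10.0 and 9.65 CPM in wild type and 9.07 and 8.75 CPM in parental cells.

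Of the lists with at least 5 tested members, those of interferon-inducible genes had the highest medians. Type I interferons bind a receptor that activates JAK kinases, and these phosphorylate STAT proteins, which join IRF9 and bind the interferon-stimulated response element in target promoters. The products block viral replication, degrade RNA, and load peptides on MHC class I molecules. The element is a pair of GAAA cores, searched here as GAAANNGAAA on both strands (so also TTTCNNTTTC) in the 250 bases before each RefSeq gene start (GRCm38.p6). Sequences around it are printed for 6 genes called higher in T567A, 5′ to 3′ on the strand of the gene, with each match in capitals.
Ifit3b (chr19:34607761-34607820, plus strand): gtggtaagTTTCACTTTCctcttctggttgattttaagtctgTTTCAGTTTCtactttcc
Slfn8 (chr11:83020824-83020883, minus strand): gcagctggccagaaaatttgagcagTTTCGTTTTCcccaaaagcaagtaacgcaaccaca
Gbp3 (chr3:142559977-142560036, plus strand): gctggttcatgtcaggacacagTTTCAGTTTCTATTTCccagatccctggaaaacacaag
Irgm1 (chr11:48871421-48871480, minus strand): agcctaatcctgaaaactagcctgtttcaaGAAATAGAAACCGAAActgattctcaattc
Cxcl10 (chr5:92349068-92349127, minus strand): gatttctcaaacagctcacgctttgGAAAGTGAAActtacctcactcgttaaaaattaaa
H2-T22 (chr17:36042899-36042958, minus strand): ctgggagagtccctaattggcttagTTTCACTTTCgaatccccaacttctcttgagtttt
The nearest match lay 144 bases before the start in Ifit3b, 126 in Slfn8, 29 in Gbp3, 14 in Irgm1, 203 in Cxcl10 and 181 in H2-T22, and overlapping matches in Gbp3 and Irgm1 were counted apart. Of the genes in the promoter table, 936 of 27025 (3.46%) held a match, and of the tested genes in it 320 of 9735 (3.29%). It was held by 17 of the 49 interferon-stimulated effectors in the table (34.7%), by 11 of 12 interferon-inducible GTPases (91.7%), by 3 of 20 MHC class I processing genes (15%) and by 1 of 22 chemokines and cytokines (4.55%). A match describes these letters and is no evidence of binding.

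Of 61 tested interferon-stimulated effectors, 57 rose in T567A, 39 of them over 2-fold, 1 fell and 3 were not called, where 20.4% of all genes were called higher. Their median log2 fold change was 1.12, against -0.0004 over all genes. Cmpk2, a mitochondrial nucleotide kinase (chromosome 12, 26469204 to 26479837), had 76.1 and 69.2 CPM in T567A, against 15.9 and 19.1 CPM in wild type (2.05 ± 0.0929, adjusted p = 4.43e-13). It lies beside Rsad2, which encodes the antiviral enzyme viperin and was at 119.7 and 106 CPM in T567A, against 18.7 and 20.3 CPM in wild type. Slfn8, a Schlafen family member, had 90.6 and 75.1 CPM in T567A and 20.6 and 21.4 CPM in wild type (1.98 ± 0.0925, adjusted p = 7.26e-13). For each of these genes both T567A libraries stood above all 8 other libraries, which lay close together: for Cmpk2 the T567D, empty-vector and parental libraries ranged from 14.2 to 20.9 CPM. Ifit3b, which encodes a protein of the family that binds foreign RNA ends, was at 376 and 397 CPM in T567A and 106 and 99.1 CPM in wild type (1.91 ± 0.0629, adjusted p = 1.87e-15). Sp110, a nuclear body protein, rose by 1.93. The exception was Ifi27, a mitochondrial protein gene, which fell to 81.1 and 91.1 CPM in T567A, against 127 and 128 CPM in wild type (-0.57 ± 0.0704, adjusted p = 1.89e-06). All 21 tested GTPases of the GBP and IRG families, which attack the vacuoles of intracellular microbes, rose, 20 of them over 2-fold, with a median of 1.66. Gbp3 was at 472 and 441 CPM in T567A and 143 and 140.0 CPM in wild type (1.69 ± 0.0623, adjusted p = 1.25e-14), and Irgm1, a regulator of the other IRG proteins, at 356 and 368 CPM in T567A and 157 and 153 CPM in wild type (1.23 ± 0.0584, adjusted p = 8.03e-13). With the GC correction 57 effectors and 20 GTPases were called higher, and with any 1 library left out 55 to 58 and 20 to 21. Set against the T567D line, 58 of the 61 effectors and all 21 GTPases were called higher in T567A, and against the empty vector 56 and 21, all with the same T567A libraries.

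Upstream of these genes, 19 of 29 tested sensors of foreign nucleic acid and their adaptors rose, 2 fell and 8 were not called (median 0.53). The shares over all tested genes were 20.4% higher and 19.1% lower. Tlr3, the endosomal receptor for double-stranded RNA, had 132 and 120.2 CPM in T567A and 33.5 and 36.9 CPM in wild type (1.84 ± 0.0867, adjusted p = 8.03e-13). Zbp1, a sensor of Z-form nucleic acid, had 83.0 and 88.7 CPM in T567A and 26.9 and 22.6 CPM in wild type (1.79 ± 0.0958, adjusted p = 5.48e-12). Ifih1, the cytosolic sensor MDA5, had 215 and 193 CPM in T567A and 63.8 and 68.9 CPM in wild type (1.62 ± 0.0762, adjusted p = 7.61e-13). The groups did not overlap in any of these 3, as for 69.2% of all tested genes. Many such sensors are interferon-inducible themselves. Mavs, the adaptor shared by the cytosolic RNA sensors, was lower in T567A (34.5 and 37.2 CPM, against 45.0 and 43.4 CPM in wild type, -0.30 ± 0.0797, adjusted p = 0.00475). Without T567A replicate 2 or wild-type replicate 1 the count of lower sensors was 1 in place of 2, and with the replicate number as a block it was 0.

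The interferon genes themselves were at or near the detection limit. Ifna1, Ifna2, Ifnl2 and Ifnl3 had 0 counts in all 4 libraries, and Ifna4 had 1 count in each T567A library and 0 in wild type. Ifnb1, which encodes interferon beta (chromosome 4, 88522025 to 88522774), passed the filter with 16 and 18 counts in T567A and 4 and 6 in wild type. That difference was called (1.84 ± 0.48, adjusted p = 0.00439), but not without wild-type replicate 1 (1.58) or with the replicate block (1.64). Among interferon receptor and JAK-STAT genes, 15 of 30 tested rose, 4 fell and 11 were not called (median 0.30). Over all tested genes 20.4% rose and 19.1% fell, so the lower calls did not exceed the share over all genes. The receptor chains Ifnar1 and Ifnar2 were higher by 0.40 and 0.45. Stat2 rose to 297 and 285 CPM in T567A, against 109.9 and 111 CPM in wild type (1.40 ± 0.0798, adjusted p = 3.17e-11). Usp18, a feedback inhibitor of the receptor, rose to 194 and 203 CPM in T567A, against 66.2 and 66.0 CPM in wild type (1.58 ± 0.0623, adjusted p = 3.64e-14), and Irf7, a transcription factor that amplifies interferon production, to 298 and 357 CPM, against 154 and 158 CPM in wild type (1.07 ± 0.0748, adjusted p = 3.99e-10). Irf9, the DNA-binding partner of STAT proteins, rose by 0.44. Socs1, a suppressor of JAK kinases, was lower by a margin at the threshold (-0.43 ± 0.162, adjusted p = 0.0404), a call that was lost in 11 of 23 alternatives, among them the GC correction (-0.19), the replicate block, DESeq2 and the fits without T567A replicate 2 or either wild-type library. The count of 4 lower genes became 2 without T567A replicate 2, either wild-type library or either empty-vector library, 2 with the GC correction and 1 with the replicate block.

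Of 25 tested genes of MHC class I presentation, 23 rose and 2 were not called (median 0.67). By comparison, 20.4% of all tested genes rose and 19.1% fell. B2m, the shared light chain, was at 879 and 1012 CPM in T567A and 626 and 568 CPM in wild type (0.66 ± 0.069, adjusted p = 1.64e-07). H2-T23, the mouse counterpart of HLA-E, rose by 1.00 and Psmb9, an immunoproteasome subunit, by 0.97. Against the empty-vector line 19 of the 25 were called higher. Of 31 tested chemokines and cytokines, 18 rose, 12 of them over 2-fold, 3 fell and 10 were not called (median 0.67). Ccl5, an attractant of T cells, had 155 and 186 CPM in T567A and 47.5 and 46.6 CPM in wild type (1.86 ± 0.0948, adjusted p = 5.49e-11). Tnfsf10, the death ligand TRAIL, had 5.18 and 3.51 CPM in T567A and 0.931 and 0.743 CPM in wild type (2.35 ± 0.291, adjusted p = 1.78e-06). Ccl2, an attractant of monocytes, rose by 1.17. Cxcl12, the ligand of the receptor CXCR4, fell instead, to 83.5 and 74.8 CPM in T567A, against 118 and 112 CPM in wild type (-0.54 ± 0.0689, adjusted p = 2.33e-06).

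Many genes of lipid synthesis were also higher in T567A. Cells make cholesterol from acetyl-CoA through mevalonate and squalene, and the transcription factor SREBP-2, released by its escort Scap when sterols are low, drives these genes together. Of 29 tested genes of cholesterol synthesis and uptake, 24 rose, 1 fell and 4 were not called (median 0.82). By comparison, 20.4% of all tested genes rose and 19.1% fell. In the mevalonate branch, Idi1, an isopentenyl diphosphate isomerase, had 138 and 125 CPM in T567A and 57.4 and 60.9 CPM in wild type (1.15 ± 0.0762, adjusted p = 1.39e-10). Pmvk, a mevalonate-pathway kinase, had 28.4 and 33.3 CPM in T567A and 14.5 and 15.7 CPM in wild type (1.04 ± 0.108, adjusted p = 1.51e-07). Fdps, the farnesyl diphosphate synthase, had 319 and 348 CPM in T567A and 169.6 and 169 CPM in wild type (0.98 ± 0.069, adjusted p = 3.86e-10). The groups did not overlap in any of the 3, as for 69.2% of all tested genes. Dhcr7, which acts last in one branch of the route, rose by 1.00. Scap was called lower (74.0 and 84.4 CPM in T567A, 99.0 and 95.2 CPM in wild type, -0.29 ± 0.0695, adjusted p = 0.00218), but its estimate was -0.04 with the GC correction. The 1 gene called lower became 2 without wild-type replicate 1 or either T567D library, and 0 with the GC correction. The empty-vector line lay between the 2 lines for several of these genes, with 90.6 and 87.9 CPM of Idi1, and against it 16 of the 29 were called higher in T567A (median 0.30).

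In fatty acid synthesis and desaturation 13 of 25 tested genes rose, 3 fell and 9 were not called (median 0.32). Since 20.4% of all tested genes rose and 19.1% fell, the lower calls did not exceed the share over all genes. The desaturases led. Scd2, a stearoyl-CoA desaturase that makes monounsaturated fatty acids, was at 751 and 802 CPM in T567A and 243 and 227 CPM in wild type (1.73 ± 0.0693, adjusted p = 5.22e-14). Scd1, its paralogue, was at 532 and 571 CPM in T567A and 234 and 256 CPM in wild type (1.17 ± 0.0785, adjusted p = 6.95e-10). Both genes were above every library of the other 4 lines, where Scd2 reached 490.0 CPM in a parental library. Acss2, which makes acetyl-CoA from acetate, rose by 1.22 and Fads2, a desaturase of polyunsaturated fatty acids, by 0.88. Fasn, the fatty acid synthase, was called lower (-0.19 ± 0.0662, adjusted p = 0.0284) and turned to 0.02 with the GC correction. Under that correction none of the 25 was called lower and 15 were called higher. The 3 lower calls became 1 without T567A replicate 2, and 0 without wild-type replicate 1 and with the replicate block.

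**Figure D3:**
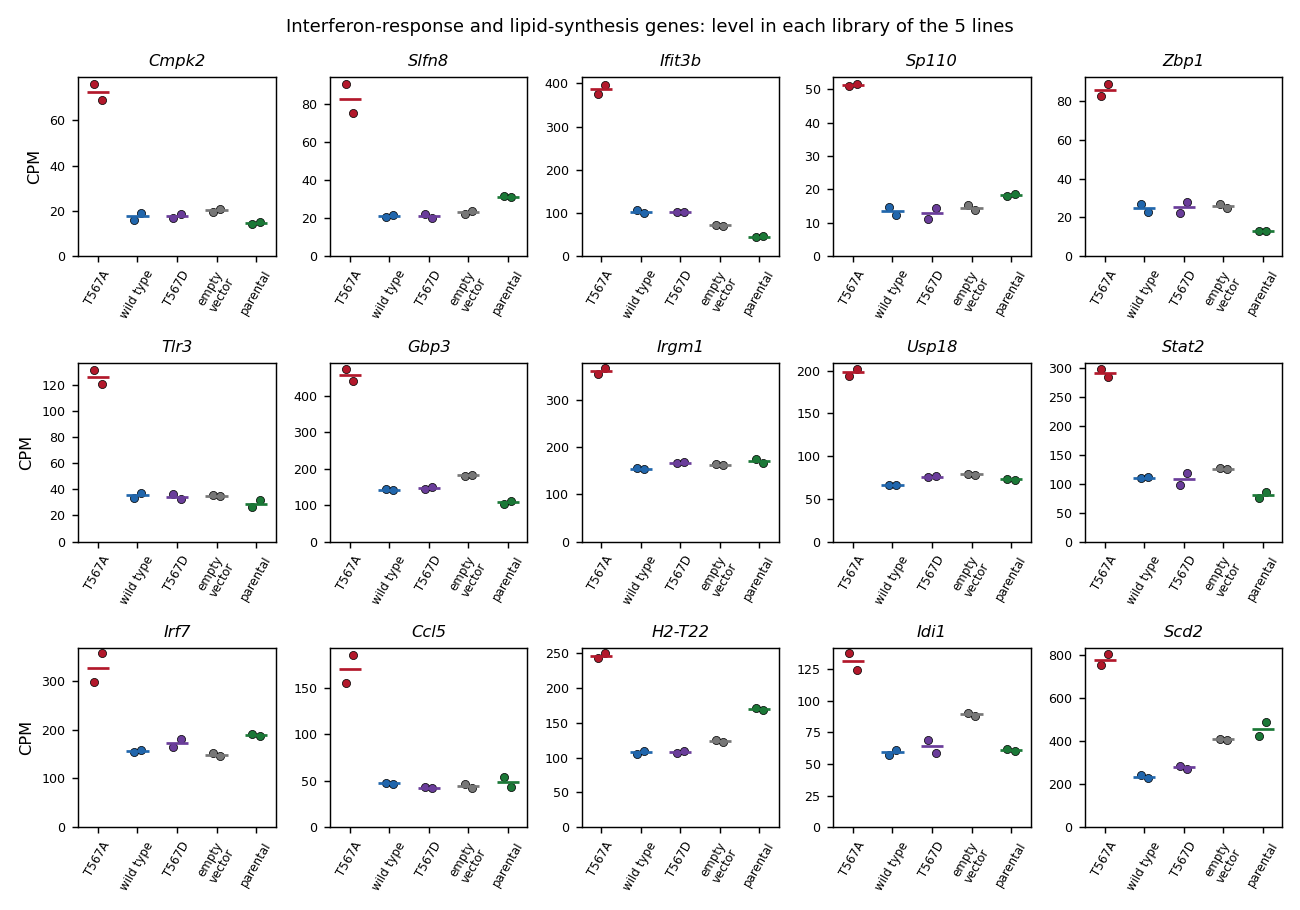
Level in CPM (y axis, from 0) of 13 interferon-response genes and 2 lipid-synthesis genes (Idi1 and Scd2) in each library of the 5 lines (x axis, T567A leftmost). Points are libraries and bars the mean of the 2. T567A libraries lie above all others in each panel, while the wild-type, T567D, empty-vector and parental libraries lie close together in most interferon panels.

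Most of the called matrix glycoproteins and collagen chains were lower in T567A, and a few were higher. Of 32 tested matrix glycoproteins, 17 fell, 5 rose and 10 were not called (median -0.43). Among all tested genes 19.1% fell and 20.4% rose. Without wild-type replicate 1, 2 were called higher, and with the GC correction 6 rose and 14 fell. Fn1, fibronectin, fell to 49.9 and 51.4 CPM in T567A, against 173 and 162 CPM in wild type (-1.73 ± 0.0978, adjusted p = 8.41e-10). Tnc, tenascin C, a matrix protein of remodelling tissue, fell to 9.46 and 7.68 CPM in T567A, against 28.9 and 30.2 CPM in wild type (-1.80 ± 0.136, adjusted p = 4.14e-09). Ltbp3, which holds latent TGF-beta in the matrix, fell to 110.3 and 119 CPM in T567A, against 233 and 219 CPM in wild type (-0.98 ± 0.0634, adjusted p = 9.46e-11). Fn1 and Tnc in T567A lay below all other libraries of the series. Thbs1, thrombospondin 1, which binds cells and activates latent TGF-beta, was higher: 1596 and 1639 CPM in T567A, against 664 and 666 CPM in wild type (1.28 ± 0.0634, adjusted p = 1.37e-12). The parental libraries were near T567A, with 1350 and 1486 CPM of Thbs1. The T567D and empty-vector libraries had 463 to 767 CPM. Of 26 tested collagen chains, 9 fell, 2 rose and 15 were not called (median -0.33, and -0.13 with the GC correction). Col6a2, a chain of the beaded-filament collagen, fell to 2.76 and 3.12 CPM in T567A, against 11.9 and 10.7 CPM in wild type (-1.93 ± 0.149, adjusted p = 1.57e-09), and Col5a1, a regulator of fibril diameter, fell by 0.89. Col1a1, the main chain of bone collagen, was higher, at 598 and 609 CPM in T567A and 272 and 247 CPM in wild type (1.22 ± 0.0701, adjusted p = 1.42e-11). It was higher still in T567D (675 and 794 CPM) and in the parental libraries (1805 and 1827 CPM). The summed level of 8 fibroblast markers was 829 and 845 CPM in T567A and 1085 and 1004 CPM in wild type, with Thy1 and Lum at 0 in all 4 libraries. The part of these levels in the matrix results was not tested.

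Ogn (osteoglycin) and Omd (osteomodulin), neighbouring genes of small leucine-rich proteoglycans of bone on chromosome 13, were higher together. Ogn had 542 and 514 CPM in T567A, against 124 and 121 CPM in wild type (2.10 ± 0.0675, adjusted p = 1.87e-15). Omd had 39.6 and 36.9 CPM in T567A, against 10.8 and 10.1 CPM in wild type (1.87 ± 0.0986, adjusted p = 3.79e-12). Both were lowest in the empty-vector line, with 51.6 and 53.3 CPM of Ogn. Adamts1 and Adamts5, neighbouring genes on chromosome 16 that encode proteases of aggrecan and versican, rose by 1.90 and 1.64, with 136 and 122 CPM of Adamts1 in T567A, against 32.6 and 36.4 CPM in wild type. Mmp9, a gelatinase, rose by 1.19, and Loxl4, a collagen-crosslinking lysyl oxidase, by 1.08. These proteases were not typical of their lists. Of 19 tested ADAMTS and ADAM proteases, 3 rose, 7 fell and 9 were not called (median -0.30). Of 17 tested matrix metalloproteinases and TIMP inhibitors, 3 rose, 5 fell and 9 were not called (median -0.19). Among all tested genes 20.4% rose and 19.1% fell. Among 21 tested osteoblast regulators and bone matrix genes, 7 rose, 4 fell and 10 were not called (median 0.08). The summed level of the 9 osteoblast markers was 955 and 984 CPM in T567A and 612 and 564 CPM in wild type, a difference carried mostly by Col1a1, while 2 of the 5 tested markers rose and 2 fell (median 0.06). Alpl, the alkaline phosphatase of mineralising osteoblasts, fell to 2.21 and 3.4 CPM in T567A, against 9.95 and 9.25 CPM in wild type (-1.75 ± 0.185, adjusted p = 1.93e-07), while Bmp2, a bone-inducing ligand, rose to 50.7 and 44.5 CPM in T567A, against 22.7 and 25.5 CPM in wild type (0.98 ± 0.0919, adjusted p = 3.42e-08).

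**Figure D4:**
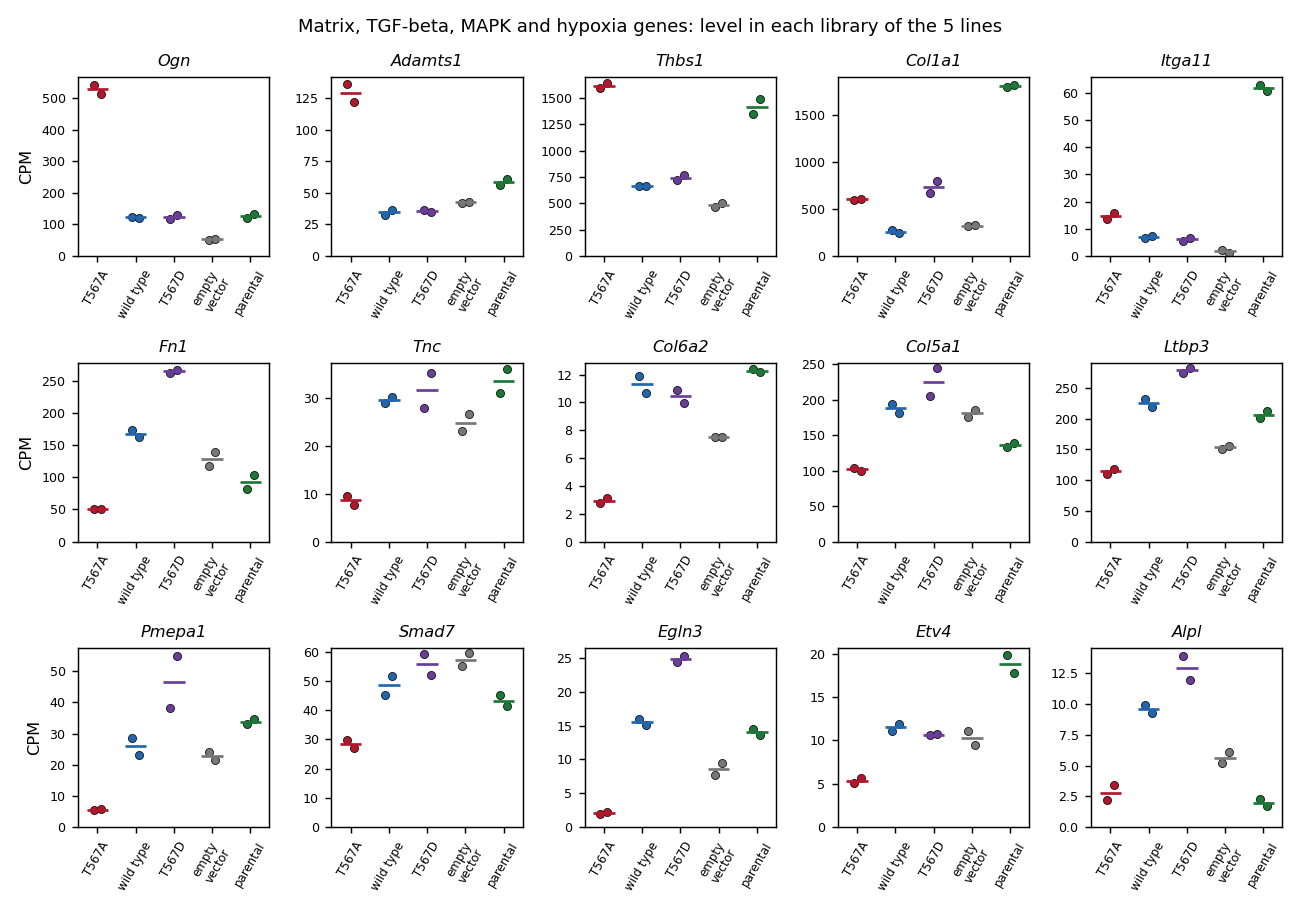
Level in CPM (y axis, from 0) of 15 matrix, TGF-beta, MAPK and hypoxia genes in each library of the 5 lines (x axis, T567A leftmost). Points are libraries and bars the mean of the 2. Ogn and Adamts1 are highest in T567A, Fn1, Tnc, Pmepa1 and Egln3 are lowest there, and Col1a1 is higher in T567D and parental libraries than in T567A.

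More genes of the TGF-beta axis were called lower than higher. Beside Pmepa1, Smad7, an inhibitory Smad, fell to 29.8 and 27.2 CPM in T567A, against 45.3 and 51.7 CPM in wild type (-0.77 on the log2 scale), and the ligand Tgfb1 fell by 0.75. Tgfb2 rose to 15.0 and 12.6 CPM in T567A, against 6.52 and 9.08 CPM in wild type (0.81 ± 0.141, adjusted p = 0.000109). Over the 34 tested genes of the TGF-beta and BMP axis, 13 fell, 8 rose and 13 were not called (median -0.18, and -0.07 with the GC correction). Among all tested genes 19.1% fell and 20.4% rose, so the higher calls were near the share over all genes. The 8 higher calls became 4 without either wild-type library and with the replicate block.

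More genes that respond to MAPK signalling were called lower than higher: of 32 tested, 17 fell, 2 rose and 13 were not called (median -0.37). The shares over all tested genes were 19.1% lower and 20.4% higher. Without wild-type replicate 1 the count of higher genes was 1. Etv4, an ETS factor induced by ERK, fell to 5.11 and 5.62 CPM in T567A, against 11.1 and 11.9 CPM in wild type (-1.09 ± 0.137, adjusted p = 2.12e-06). Dusp4, a phosphatase that shuts off ERK, fell by 1.05, and the AP-1 subunits Jund and Fosl1 fell by 0.85 and 0.61. With the GC correction 15 fell (median -0.26).

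The actin cytoskeleton, to which ezrin links the membrane, showed small decreases in abundant genes. Of 37 tested genes of actin and contractility, 17 fell, 4 rose and 16 were not called (median -0.14), and none of the called ones reached 2-fold. Vim, the intermediate filament vimentin, was at 5367 and 6144 CPM in T567A and 9000.4 and 8201 CPM in wild type (-0.58 ± 0.0688, adjusted p = 1.13e-06). Actn4, an actin crosslinker, was at 388 and 428 CPM in T567A and 606 and 579 CPM in wild type (-0.54 ± 0.0594, adjusted p = 3.48e-07), and Tagln2, an actin-binding protein, fell by 0.97. Fscn1, fascin, which bundles the actin of filopodia, was higher, at 738 and 871 CPM in T567A and 463 and 499 CPM in wild type (0.74 ± 0.0719, adjusted p = 6.45e-08). With the GC correction 15 fell and 7 rose. Of 31 tested scaffolds, membrane partners and kinases of the ERM proteins, 7 rose, 9 fell and 15 were not called (median 0.02), where 20.4% of all genes rose and 19.1% fell. Pdpn, podoplanin, a membrane glycoprotein that binds ezrin and moesin, fell to 26.6 and 25.4 CPM in T567A, against 58.3 and 58.7 CPM in wild type (-1.17 ± 0.0803, adjusted p = 2.49e-10). Cd44, the hyaluronan receptor and an ERM partner, fell by 0.30. Muc1, a mucin that binds ezrin, was higher (1.86 and 2.28 CPM in T567A, 0.698 and 0.857 CPM in wild type, 1.42 ± 0.32, adjusted p = 0.0014). The 7 higher calls became 4 without wild-type replicate 3, and the 9 lower ones 5 with the replicate block. Of 17 tested integrins, 8 fell and 2 rose (median -0.28, and -0.06 with the GC correction), and 5 fell without wild-type replicate 1. Itga3, a laminin receptor chain, was higher at 938 and 1023 CPM in T567A and 576 and 570.0 CPM in wild type (0.78 ± 0.059, adjusted p = 1.19e-09). Itga11, a collagen receptor chain, rose by 1.09, and Itgb5, a vitronectin receptor chain, fell by 0.58.

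In the hypoxia response the decrease of Egln3 stood beside increases of other members: of 23 tested, 11 rose, 3 fell and 9 were not called (median 0.24). For this list and those below, the shares over all tested genes were 20.4% higher and 19.1% lower. The lower calls of the hypoxia and stress lists did not exceed that share. Hif1a, the oxygen-regulated subunit of HIF-1, had 345 and 321 CPM in T567A, against 175 and 192 CPM in wild type (0.86 ± 0.067, adjusted p = 1.87e-09), and Bnip3, a HIF target in mitophagy, rose by 0.81. Of 20 tested glycolysis genes 11 rose and 9 were not called (median 0.26), and 1 was called lower without T567A replicate 3. In the integrated stress response, in which the factor ATF4 induces amino acid transport and synthesis, 14 of 30 tested genes rose, 3 fell and 13 were not called (median 0.16). Slc7a11, the cystine transporter, had 41.1 and 39.1 CPM in T567A and 18.0 and 16.5 CPM in wild type (1.22 ± 0.108, adjusted p = 1.45e-08). Atf4 itself rose by 0.59 and Trib3, its target and inhibitor, by 0.87. The 3 lower calls became 1 without T567A replicate 2, and 0 without wild-type replicate 1 and with the GC correction, under which 18 rose. Mitotic genes were slightly lower: of 33 tested, 19 fell and 14 were not called (median -0.23), and 26 fell with the GC correction. Cdc20, an activator of the anaphase-promoting complex, had 115 and 131 CPM in T567A and 172 and 184 CPM in wild type (-0.53 ± 0.0688, adjusted p = 3.34e-06). Cenpa, the centromeric histone variant, fell by 0.61 and Mki67, a proliferation marker, by 0.38, the last not called without T567A replicate 3 (-0.30). Against the empty-vector line 31 of the 33 were called lower in T567A.

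**Figure D5:**
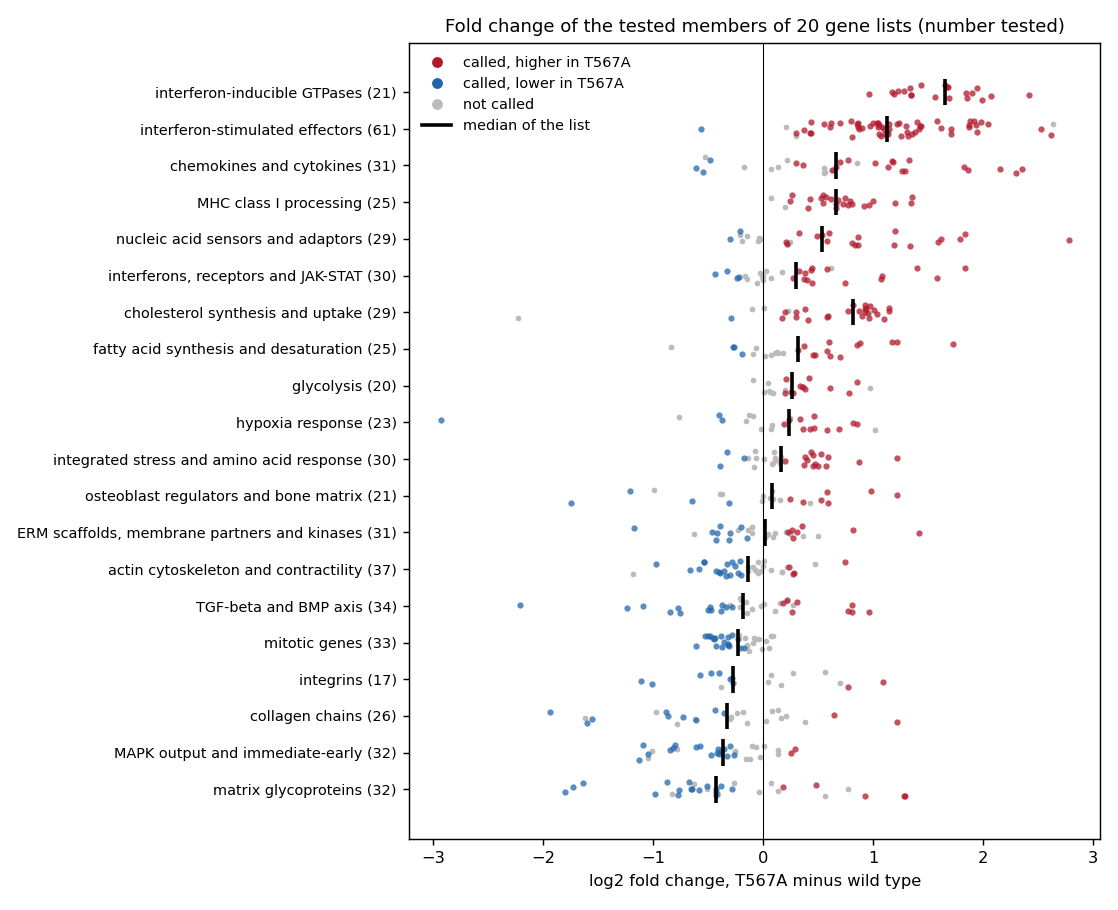
Log2 fold change, T567A minus wild type (x axis), of the tested members of 20 gene lists (y axis, number tested in brackets). Red and blue points were called higher and lower in T567A, grey points were not called, and black bars are medians. The 21 interferon-inducible GTPases all lie right of 0 with a median of 1.66, and matrix glycoproteins have the lowest median, -0.43.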

How the data were processed

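The measured material was poly-A RNA in strand-marked (dUTP) libraries sequenced on a DNBSEQ instrument, per the labels' protocols. The authors deposited raw read counts and RPKM per gene for each library, and the submitters' processing notes name GRCm38. The aligner, the counting program, its annotation and its strand setting were not given in the sources used here. Genes were kept with filterByExpr (minimum count 10, minimum total 15), scaled by TMM and fitted over all 10 libraries with one term per line by edgeR's robust quasi-likelihood test (5 residual degrees of freedom, Benjamini-Hochberg adjustment, threshold 0.05). The deposited RPKM values entered only as an alternative, with limma on log2(RPKM + 1) and log2(RPKM + 0.1). The GC correction removed each library's lowess trend of log2 CPM against transcript GC content through offsets, and was chosen after seeing the data. Names matched GENCODE M21 for 40523 of 41743 genes and 12428 of 12595 tested ones, 173 names are numbered copies, and promoters came from RefSeq GRCm38.p6. Groups followed the labels, and folds against 0 counts used a floor of 3 counts per library. Intervals and floors cover counting error only.

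Named genes were the 4 ERM family genes, the 12 largest increases and decreases among protein-coding genes with at least 10 CPM and no overlap, and, of each list, up to 4 called members in each direction and the 4 of highest level. Ifnb1, Ifnar1, Ifnar2, Irf9, B2m, Psmb9, Dhcr7, Tgfb1, Wnt9b, Pir, Cdh26, Fam216b, Fam217b and Ppp1r3d were named after their values were seen. Zfp971 and Zfp931 were named as neighbours of Cdh26. The members and lists were chosen with earlier results of these data known. Alternatives were RLE and upper-quartile scaling, other filters, a replicate block, a test against a 1.5-fold change, fits on fewer libraries, an adjusted p under 0.01 and DESeq2. The code was tested on simulated data. R 4.3.3, edgeR 4.0.16, limma 3.58.1, DESeq2 1.42.0 and matplotlib 3.10.9 were used.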

Additional observations from a re-analysis of the deposited data

How the results depend on the processing

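The count of 4983 genes called between T567A and wild type was 492 in a test against a 1.5-fold change, 3313 with the GC correction and replicate block together, and 3314 to 5006 with 1 library left out, lowest without wild-type replicate 1. Scaling by upper quartiles left the count at 4988 and moved the share called higher to 43.8%, against 51.7% with TMM. DESeq2 called 3796. The 642 genes past 2-fold became 299 with at least 5 CPM in 2 libraries, 378 in the test against 1.5-fold and 154 on log2(RPKM + 1), a scale that compresses low values, and 569 to 657 with 1 library left out. Against T567D, 643 of 5558 calls were made in the test against 1.5-fold, and 4004 to 5474 with 1 library left out. Against the empty vector the counts were 808 of 5842, and 4390 to 5870. Against wild type, that test called 0 of the 19 lower mitotic genes, 0 of the 8 lower integrins and 1 of the 11 higher glycolysis genes. T567A and wild type share the replicate number 3 alone, the deviations of those libraries correlated at -0.209 over 8946 genes (0.245 for T567A and T567D, which also share that number alone), and the numbers were not taken to pair the samples. With the replicate number as a block, 3355 genes were called against wild type, 3849 against T567D and 5489 against the empty vector. Rdx, which was not called, changed sign with upper-quartile scaling (-0.0157), no filter (-0.000518), log2(RPKM + 1) (-0.0115), log2(RPKM + 0.1) (-0.0118), the GC correction (-0.10), that correction with the block (-0.0693) and with 1 library left out (-0.00169 to 0.0388). Scap turned to 0.0021 with the GC correction and block, and Fasn to 0.0222 with the GC correction and 0.0233 with both. The cause was not tested.

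With 2 libraries a line, the T567A pair differing most from each other, small fold changes are the least secure. Counts at or under 3 per library set the lower limit of detection, which is 0.167 to 0.207 CPM. Effects of the ezrin mutation, of the stable line and of base composition in these libraries were not separated.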

Other observations

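The fold changes of T567A minus wild type were not even along the genome. In stretches of 10 Mb with at least 30 tested genes, 166 in all, the highest median was on chromosome 11 (GRCm38, 80000001 to 90000000), at 0.40, with 54 of 87 genes called higher and 1 lower. This stretch holds Slfn8 and Ccl5, members of clusters of Schlafen and chemokine genes. The median there was 0.43 against T567D and 0.44 against the empty vector, which share the T567A libraries. On chromosome 2 (140000001 to 150000000) the median was 0.36, with 19 of 33 genes called higher and 0 lower, and on chromosome 16 (90000001 to 100000000) it was 0.34, with 30 of 51 called higher and 1 lower. The lowest median was on chromosome 5 (30000001 to 40000000), at -0.22, with 44 of 100 called lower and 5 higher. Among all tested genes 20.4% were called higher and 19.1% lower. The median transcript GC content was 46.98%, 46.36% and 49.33% in the stretches on chromosomes 11, 2 and 16. It was 51.68% in that on chromosome 5. Fold changes followed GC content over all tested genes, and its part in these stretches was not tested. The stretches were picked by their medians, so these values are a description with no test.

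In the chromosome 2 neighbourhood of Cdh26, Ppp1r3d had 1 and 0 counts in T567A and 8 and 11 in wild type, while the nearest tested genes at lower coordinates, Zfp971 and Zfp931, were not called (0.18 and 0.34). Fam216b had 0 counts in both T567A libraries and 13 and 11 in wild type, with 1 count over the other 6 libraries together, so that it stood out in wild type and not in T567A. It was at least 3.75-fold lower in T567A against a floor of 3 counts per library.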
